A study of Mus musculus with 36 samples.

Results

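The genes followed here are 9 dual specificity phosphatases that act on MAP kinases, namely Dusp1, Dusp2, Dusp4, Dusp5, Dusp6, Dusp7, Dusp8, Dusp10 and Dusp16. They were taken by gene name from the deposited expression table, 9 of 16416 named genes, and all 9 were tested, with a value at or above the expression minimum in 36 of 36 libraries. RNA was measured by single-end sequencing of 75 bp reads in macrophages grown from mouse bone marrow. One set of cells carried the D310N form of Tnip2 (D310N) and the other the wild-type gene (WT). Cells of each genotype were unstimulated (0 min) or treated with lipopolysaccharide (LPS), a component of the bacterial outer membrane, at 100 ng/ml for 30, 60, 120, 240 or 360 min, with 3 libraries for each of the 12 groups. Before use, all cells had spent 7 days in RPMI to which 10% fetal calf serum and 10% L929 cell supernatant had been added, the supernatant being a source of the macrophage growth factor M-CSF. The labels do not say whether the 3 libraries of a group came from separate animals or cultures, so the p-values measure only the spread between these libraries, which may be technical. That spread was estimated for each gene over all 12 groups together, so leaving out a library can move the p-values of other groups.

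MAP kinases are switched on when a kinase above them adds phosphate to a threonine and a tyrosine of their activation loop, and dual specificity phosphatases switch them off by removing both. Dusp1, Dusp2, Dusp4 and Dusp5 encode nuclear enzymes whose genes are known as inducible; Dusp5 acts on ERK, while Dusp1, Dusp2 and Dusp4 act on several MAP kinases. Dusp6 and Dusp7 encode cytoplasmic enzymes selective for ERK, and Dusp8, Dusp10 and Dusp16 encode enzymes that prefer JNK and p38. Tnip2 encodes ABIN-2, which binds and stabilises the MAP3 kinase Tpl2, the enzyme that couples the LPS receptor to ERK in macrophages, and the comparisons ask whether RNA along the LPS response differs when ABIN-2 carries the D310N change.

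Values are the authors' normalised values on a log2 scale, and a difference of 1 is 2-fold. Read depth is unknown, so no counting interval is given. The Tnip2 RNA differed between D310N and WT by 0.03 ± 0.03 on average over the 6 times (log2 difference ± SE, adjusted p = 0.441); a single-codon change need not alter the level of its RNA, so this checks nothing about the labels. All 8 macrophage markers were tested, with summed linear values of 217000 to 280000 in D310N and 228000 to 280000 in WT libraries. On average over the 6 times 6 of them were lower and 2 higher in D310N at an adjusted p under 0.05 (median log2 difference -0.11). Of all tested genes 25.4% were lower and 22.7% higher by that rule. The T cell, B cell, neutrophil, dendritic cell and stromal lists summed to between 10.9 and 143 per library, and no erythroid or mast cell marker was tested (sums of at most 0.171). The 8 markers of dividing cells were all lower on average in D310N (median log2 difference -0.64), with sums of 1580 to 6880 in D310N and 2050 to 9760 in WT libraries. The library labelled WT 360 min replicate 1 stood apart: its values lay 0.19 (root mean square, log2, 11656 tested genes) from the mean of WT at 240 min and 0.369 from the mean of the other WT libraries of 360 min. Of the 9 phosphatases, 8 were nearer to WT at 240 min in that library, as were 75.5% of all tested genes. Most results of the 9 phosphatases that rest on it are therefore given with and without it. Averages over time of other genes and correlations of group means are given only with it. In cultures measured in bulk, fewer cells of a type and less RNA per cell cannot be told apart.

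**Figure D1:**
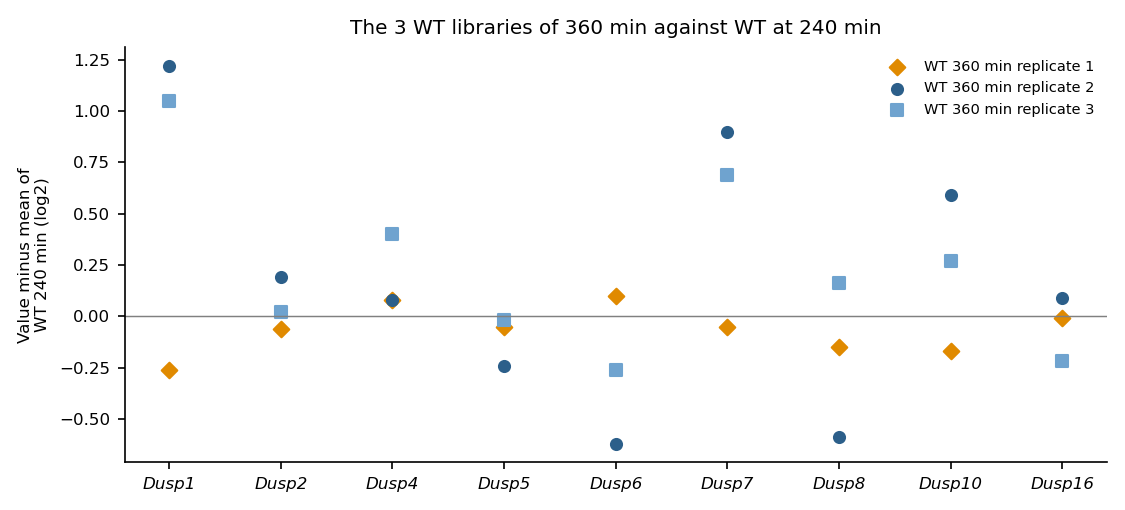
Log2 values of the 9 phosphatases in each of the 3 WT libraries of 360 min, minus the mean of the WT libraries of 240 min. For Dusp1, Dusp7 and Dusp10, replicates 2 and 3 lay above the 240 min mean and replicate 1 lay below it.

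The promoters of the 4 phosphatase genes that rose within 30 min of LPS and have an entry in the RefSeq promoter table (GRCm38.p6) are printed because they differ in which known signal-responsive elements they hold. Each window runs from 250 bases before to 50 bases after the transcription start, 5′ to 3′ on the gene's strand. Dusp1 is from chr17:26508423-26508722 (minus strand), Dusp2 from chr2:127335909-127336208 (plus strand), Dusp5 from chr19:53528895-53529194 (plus strand) and Dusp8 from chr7:142095235-142095534 (minus strand). Capitals mark matches on either strand to the motifs searched, where CGTCA is TGACG read on the opposite strand.
Dusp1: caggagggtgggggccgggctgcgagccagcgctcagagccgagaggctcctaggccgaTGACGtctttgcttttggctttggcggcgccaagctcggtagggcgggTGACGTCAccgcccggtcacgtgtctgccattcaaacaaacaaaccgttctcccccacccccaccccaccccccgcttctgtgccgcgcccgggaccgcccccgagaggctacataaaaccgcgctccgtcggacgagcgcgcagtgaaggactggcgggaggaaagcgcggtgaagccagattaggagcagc
Dusp2: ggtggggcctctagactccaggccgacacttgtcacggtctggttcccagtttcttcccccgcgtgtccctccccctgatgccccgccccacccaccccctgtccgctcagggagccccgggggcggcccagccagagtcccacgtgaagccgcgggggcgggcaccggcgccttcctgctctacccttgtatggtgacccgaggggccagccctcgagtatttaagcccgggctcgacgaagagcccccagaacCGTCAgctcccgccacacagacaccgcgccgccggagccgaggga
Dusp5: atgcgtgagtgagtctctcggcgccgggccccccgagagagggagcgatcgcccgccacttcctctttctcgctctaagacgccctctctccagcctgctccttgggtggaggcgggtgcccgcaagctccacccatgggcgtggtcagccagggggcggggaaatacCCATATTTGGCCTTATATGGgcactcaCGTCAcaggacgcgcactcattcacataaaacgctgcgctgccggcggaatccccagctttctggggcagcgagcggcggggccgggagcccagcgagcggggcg
Dusp8: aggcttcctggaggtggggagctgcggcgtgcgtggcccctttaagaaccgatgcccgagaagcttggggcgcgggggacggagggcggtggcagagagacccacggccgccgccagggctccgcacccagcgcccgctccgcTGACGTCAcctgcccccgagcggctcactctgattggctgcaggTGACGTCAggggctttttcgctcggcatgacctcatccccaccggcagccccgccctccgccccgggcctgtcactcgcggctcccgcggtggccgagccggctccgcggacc
The motifs searched were the cAMP response element (CRE) TGACGTCA, its core TGACG, which lies inside the full element on both strands, the AP-1 site TGANTCA, the ETS site CCGGAA, and the kappaB site and the CArG box, the binding sequence of serum response factor. The window of Dusp1 held 1 full CRE at -143 to -136 and that of Dusp8 held 2, at -107 to -100 and -63 to -56. A full CRE was in 1.79% of the 32851 promoter windows of the table, and the TGACG core in 20.8%. The window of Dusp5 held 2 adjoining CArG boxes at -82 to -73 and -72 to -63, a motif in 1.63% of windows, and 1 TGACG core. Dusp2 held 1 TGACG core at 6 to 10 after the start. None of the 8 windows with an entry held the AP-1, ETS or kappaB letters, which were in 7.81%, 14.9% and 4.51% of all windows, and the windows of Dusp6, Dusp7 and Dusp10 held no match to any of them. Dusp16 held 1 TGACG core at -70 to -66. These are matches of letters and no binding was measured.

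By level per kilobase of exon (normalised linear value per kb, mean of 3 libraries), Dusp1 was the most abundant of the 9 before LPS, at 692 in D310N and 653 in WT cells. Dusp7 (294 and 293), Dusp6 (251 and 216), Dusp4 (188 and 166) and Dusp2 (158 and 142) followed in both genotypes, D310N given before WT. Dusp16 stood at 68.5 in D310N and 73.1 in WT cells, Dusp5 at 44.9 and 33.9, and Dusp8 (13.6 and 16.3) and Dusp10 (15.6 and 15.5) were lowest and changed places between the genotypes. After 240 min of LPS, Dusp2 stood above Dusp1, at 1150 against 831 in D310N and 1540 against 1170 in WT cells, and Dusp16 stood at the third rank in both. At 360 min Dusp1 led again, at 1980 against 1160 for Dusp2 in D310N and at 1850 against 1600 in WT cells. The third rank at 360 min was held by Dusp7 in D310N (199, against 162 for Dusp16) and by Dusp16 in WT (206, against 173 for Dusp7). That order in WT rests on WT 360 min replicate 1, where Dusp7 was at 8.62 on log2, against 9.57 and 9.36 in replicates 2 and 3. Dusp1 was also lower in replicate 1, at 11.65, against 13.13 and 12.96. Levels per kb without that library were not computed, so no difference in rank between the genotypes is drawn from them.

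Dusp1, an immediate early gene and a main brake on p38 and JNK in macrophages (GRCm38 chr17:26505590-26562128), rose to its peak by 30 min in both genotypes. Its log2 values were 14.15, 14.19 and 14.14 in D310N libraries at 30 min, against 11.06, 11.13 and 11.31 in D310N at 0 min. In WT they were 14.12, 14.14 and 14.02 at 30 min, against 11.09, 11.03 and 11.11 at 0 min. The times did not overlap in either genotype, and the rise was 7.98-fold in D310N (log2 3.00 ± 0.19, adjusted p = 3.9e-14) and 8.07-fold in WT (3.01 ± 0.19, adjusted p = 3.38e-14). Dusp1 then fell, and at 240 min it was at 11.37, 11.48 and 11.44 in D310N, against 12.13, 11.97 and 11.65 in WT. All 3 D310N libraries lay below all 3 WT libraries there, and 37.6% of tested genes had no overlap between the genotypes at that time. Relative to 0 min Dusp1 was still raised at 240 min in WT (0.83 ± 0.19, adjusted p = 0.000152; 0.22 with adjusted p = 0.248 after quantile normalisation), and the value in D310N was 0.26 ± 0.19 (adjusted p = 0.191). A second rise followed in D310N, to 12.64, 12.62 and 12.78 at 360 min (1.26 ± 0.19 over 240 min, adjusted p = 4.98e-06). In WT the values at 360 min were 11.65 in replicate 1 and 13.13 and 12.96 in replicates 2 and 3, and the step from 240 min was 0.67 ± 0.19 (adjusted p = 0.00919) with all 3 and 1.13 (adjusted p = 2.22e-12) without replicate 1. That step did not pass without WT 360 min replicate 2 (0.39, adjusted p = 0.153), WT 360 min replicate 3 (0.48, adjusted p = 0.113) or WT 240 min replicate 3 (0.53, adjusted p = 0.0643). The annotated span of Dusp1 overlaps 4 other genes, Ergic1 on the opposite strand among them, and whether reads were counted by strand is not given in the sources used here.

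Dusp2, a nuclear phosphatase best known from activated lymphocytes and myeloid cells (GRCm38 chr2:127336159-127338376), rose as fast and stayed up. At 30 min its log2 values were 11.59, 11.64 and 11.60 in D310N, against 8.20, 8.11 and 8.59 in D310N at 0 min. In WT they were 11.49, 11.59 and 11.27 at 30 min, against 8.16, 8.14 and 8.16 at 0 min. The rise was 9.91-fold in D310N (3.31 ± 0.09, adjusted p = 7.02e-24) and 9.84-fold in WT (3.30 ± 0.09, adjusted p = 7.76e-24). Dusp2 remained above 0 min at every LPS time in both genotypes, by 7.30 to 9.91-fold in D310N and 8.19 to 11.2-fold in WT (log2 3.49 at 360 min in WT, and 3.54 without WT 360 min replicate 1). At 240 min the D310N libraries were at 11.07, 11.29 and 11.14, against 11.62, 11.61 and 11.53 in WT. At 360 min they were at 11.15, 11.28 and 11.13, against 11.53, 11.78 and 11.61 in WT. The groups did not overlap at either time, with D310N the lower. Groups without overlap made up 37.6% of tested genes at 240 min and 22.2% at 360 min.

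Dusp4, which acts on ERK and JNK in the nucleus (GRCm38 chr8:34807297-34819894), rose to a peak at 60 min and then fell below its starting level. At 60 min the log2 values were 10.71, 10.82 and 10.71 in D310N, against 9.01, 8.96 and 9.05 in D310N at 0 min. In WT they were 10.76, 10.78 and 10.78 at 60 min, against 8.89, 8.76 and 8.83 at 0 min. The rise was 3.34-fold in D310N (1.74 ± 0.08, adjusted p = 1.96e-18) and 3.85-fold in WT (1.95 ± 0.08, adjusted p = 1.08e-19). By 240 min Dusp4 was 2.58-fold below 0 min in D310N (-1.37 ± 0.08, adjusted p = 1.9e-16) and 1.89-fold below it in WT (-0.92 ± 0.08, adjusted p = 3.57e-12). Its values at 240 min were 7.61, 7.85 and 7.47 in D310N, against 7.87, 7.94 and 7.92 in WT. The lowest WT library thus lay just above the highest D310N library, and 37.6% of tested genes had no overlap at that time. At 120 min the small fall in D310N (-0.18 ± 0.08, adjusted p = 0.0437) did not pass without D310N 0 min replicate 1 or 3 (adjusted p = 0.0848 and 0.119) or D310N 120 min replicate 1 or 3 (adjusted p = 0.174 and 0.0515).

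Dusp5, a nuclear phosphatase selective for ERK (GRCm38 chr19:53529109-53542431), rose steeply and fell back. At 60 min its log2 values were 9.87, 10.01 and 9.91 in D310N, against 6.95, 6.57 and 6.88 in D310N at 0 min. In WT they were 9.97, 9.92 and 9.88 at 60 min, against 6.31, 6.43 and 6.42 at 0 min. The 60 min libraries of the genotypes overlapped, while at 0 min every D310N library lay above every WT library (no overlap in 32.7% of tested genes). The rise was therefore 8.74-fold in D310N (3.13 ± 0.10, adjusted p = 1.37e-22) and 11.6-fold in WT (3.54 ± 0.10, adjusted p = 5.28e-24). Between 60 and 120 min Dusp5 fell by 7.56-fold in D310N and 6.04-fold in WT, the largest falls of the 9 genes over that step in either genotype. At 240 min it was at 6.67, 7.13 and 6.78 in D310N, against 7.35, 7.34 and 7.43 in WT, with no overlap (as for 37.6% of tested genes). Dusp5 thus stayed above 0 min in WT at 120, 240 and 360 min (0.94, 0.99 and 0.88, each ± 0.10, adjusted p from 1.17e-10 to 1.32e-09; 0.85 at 360 min without WT 360 min replicate 1), whereas the values in D310N were 0.21, 0.06 and 0.19 (adjusted p = 0.0613, 0.589 and 0.0801). The D310N value passed at 120 min without D310N 0 min replicate 1 (0.28, adjusted p = 0.0232), D310N 120 min replicate 3 (0.27, adjusted p = 0.031) or D310N 240 min replicate 1 or 2 (adjusted p = 0.0499 and 0.0341). At 360 min it passed without D310N 0 min replicate 1 (0.26, adjusted p = 0.0288) or D310N 240 min replicate 2 (adjusted p = 0.0481), and after quantile normalisation it passed at 120, 240 and 360 min (0.39, 0.35 and 0.49). An antisense gene overlaps Dusp5.

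**Figure D2:**
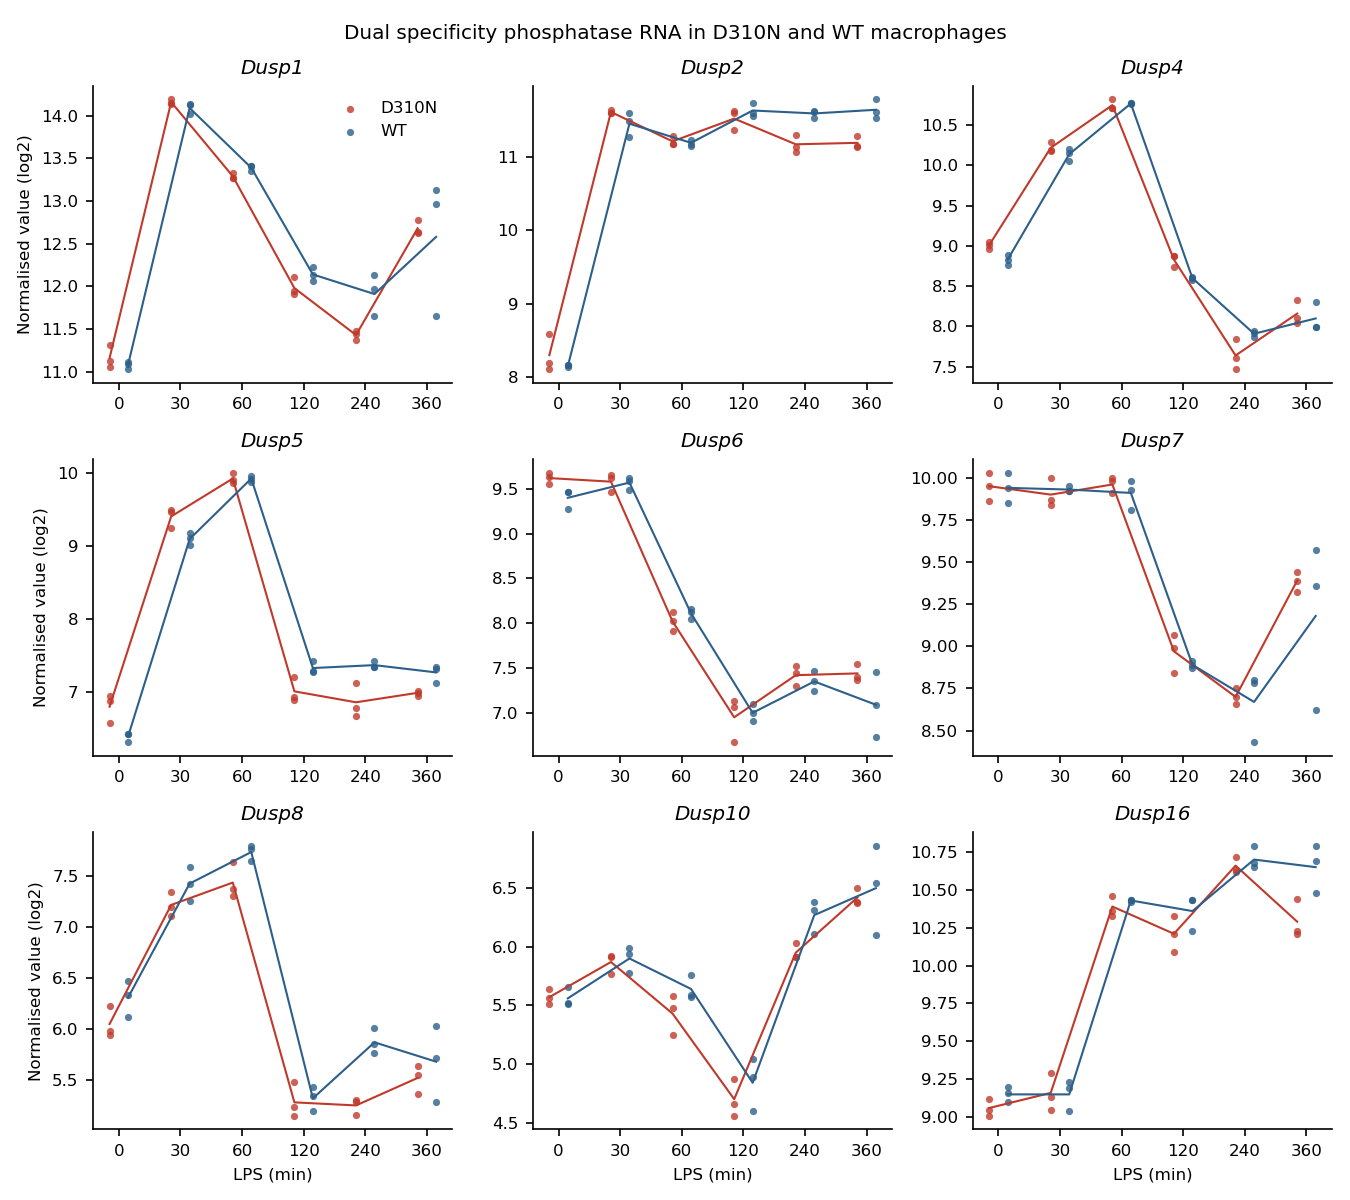
Normalised log2 values of the 9 phosphatases at 0 to 360 min of LPS, with 1 point per library and lines through the means of 3 libraries, D310N offset to the left of WT. Dusp1, Dusp2, Dusp4, Dusp5 and Dusp8 were raised at 30 min, while Dusp6 and Dusp7 stayed low from 120 min on, apart from a partial return of Dusp7 at 360 min.

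The cytoplasmic ERK phosphatases moved the other way. Dusp6, whose RNA is itself a widely used readout of ERK activity (GRCm38 chr10:99263231-99267489), differed from 0 min by -0.04 in D310N and 0.16 in WT at 30 min, neither of which passed, and then fell in both genotypes. Its lowest group means came at 120 min, with log2 values of 7.13, 6.67 and 7.06 in D310N, against 9.68, 9.55 and 9.63 in D310N at 0 min. In WT they were 6.91, 7.10 and 7.00 at 120 min, against 9.47, 9.47 and 9.27 at 0 min. Dusp6 was thus 6.35-fold below 0 min in D310N (-2.67 ± 0.12, adjusted p = 4.18e-19) and 5.28-fold below it in WT (-2.40 ± 0.12, adjusted p = 6.13e-18). It remained 4.54-fold lower in D310N and 4.97-fold lower in WT at 360 min (-2.31 ± 0.12 in WT, and -2.49 without WT 360 min replicate 1). Dusp7, a close relative of Dusp6 (GRCm38 chr9:106368632-106375724), held its level for 60 min, with means of 9.96 in D310N and 9.91 in WT at 60 min, against 9.95 in D310N and 9.94 in WT at 0 min. It was 2.37-fold lower at 240 min in D310N (-1.25 ± 0.13, adjusted p = 1.81e-10) and 2.42-fold lower in WT (-1.27 ± 0.13, adjusted p = 1.04e-10). At 360 min Dusp7 had partly returned, to 9.39, 9.32 and 9.44 in D310N, against 8.62, 9.57 and 9.36 in WT. The fall of Dusp7 in WT at 360 min was -0.76 (adjusted p = 2.45e-06) with all libraries and -0.48 (adjusted p = 3.49e-06) without replicate 1.

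The 3 phosphatases that prefer JNK and p38 each had a course of its own. Dusp8 (GRCm38 chr7:142079490-142095843) rose early with the inducible nuclear genes, with 7.38, 7.64 and 7.31 in D310N at 60 min, against 5.94, 6.23 and 5.98 in D310N at 0 min. In WT it was at 7.65, 7.80 and 7.77 at 60 min, against 6.34, 6.12 and 6.47 at 0 min. The rise was 2.62-fold in D310N (1.39 ± 0.14, adjusted p = 4.08e-10) and 2.69-fold in WT (1.43 ± 0.14, adjusted p = 2.28e-10). From 120 min on Dusp8 lay below 0 min in both genotypes, by 1.45 to 1.74-fold in D310N and 1.35 to 1.98-fold in WT (log2 -0.63 at 360 min in WT, and -0.66 without WT 360 min replicate 1). After quantile normalisation its falls in WT at 240 and 360 min (-0.06, adjusted p = 0.693, and -0.26, adjusted p = 0.0849) and in D310N at 360 min (-0.13, adjusted p = 0.378) did not pass. Dusp10 (GRCm38 chr1:184013302-184075636) dipped and then rose. At 120 min it was at 4.66, 4.87 and 4.56 in D310N and 5.04, 4.89 and 4.60 in WT, with group means at 0 min of 5.57 in D310N and 5.56 in WT. At 360 min it was at 6.38, 6.37 and 6.50 in D310N and 6.10, 6.86 and 6.54 in WT. Dusp10 was thus 1.83-fold down in D310N and 1.64-fold down in WT at 120 min, and 1.80-fold up in D310N (0.85 ± 0.13, adjusted p = 8.4e-07) and 1.92-fold up in WT (0.94 ± 0.13, adjusted p = 1.32e-07; 1.14 without WT 360 min replicate 1) at 360 min. Dusp16 (GRCm38 chr6:134715468-134792625), which anchors JNK in the cytoplasm, was raised from 60 min on, when Dusp10 was not. It was at 10.33, 10.46 and 10.36 in D310N and 10.43, 10.43 and 10.42 in WT at 60 min, with means at 0 min of 9.06 in D310N and 9.15 in WT. From 60 min on it was raised 2.22 to 3.02-fold in D310N and 2.31 to 2.93-fold in WT (log2 1.5 at 360 min in WT, and 1.48 without WT 360 min replicate 1). Genes annotated on the opposite strand overlap Dusp8, Dusp10 and Dusp16.

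Counted over the family, LPS called 5 of the 9 genes at 30 min in both genotypes, Dusp1, Dusp2, Dusp4, Dusp5 and Dusp8, all of them up, where 6.64% of tested genes were called in D310N (5.16% higher) and 6.09% in WT (4.79% higher). Their median log2 difference at 30 min over the 9 genes was 1.17 in D310N and 1.12 in WT, beside 0 over all tested genes in each. At 60 min 6 rose and 1 fell in each genotype (background 38.5% in D310N and 37.2% in WT), as Dusp16 joined the risers and Dusp6 fell. At 120 min 3 rose and 5 fell in D310N (background 64%), and 4 rose and 5 fell in WT (background 66.6%). At 240 min 3 rose and 4 fell in D310N (background 79.1%), and 5 rose and 4 fell in WT (background 80%). At 360 min 4 rose and 4 fell in D310N (background 80%), and 5 rose and 4 fell in WT (background 80.4%). Without WT 360 min replicate 1 the same 5 genes rose and the same 4 fell in WT at 360 min. From 120 min on most tested genes were called, so a high share of these 9 says little about them. Over the 5 times no gene was called in opposite directions in the genotypes, and the call was the same in 9, 9, 8, 7 and 8 of the 9 genes at 30, 60, 120, 240 and 360 min. Equal calls were not counted over all tested genes, so nothing particular to these 9 is drawn from that count. The calls made in WT alone were Dusp5 at 120, 240 and 360 min and Dusp1 at 240 min. The Dusp1 call also came up in D310N with WT 360 min replicate 1 left out (0.26, adjusted p = 0.00215). The difference between the genotypes in the change at 240 min had an adjusted p of 0.000277 for Dusp5 and 0.307 for Dusp1. All 5 times of a genotype were set against the same 3 libraries of 0 min.

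**Figure D3:**
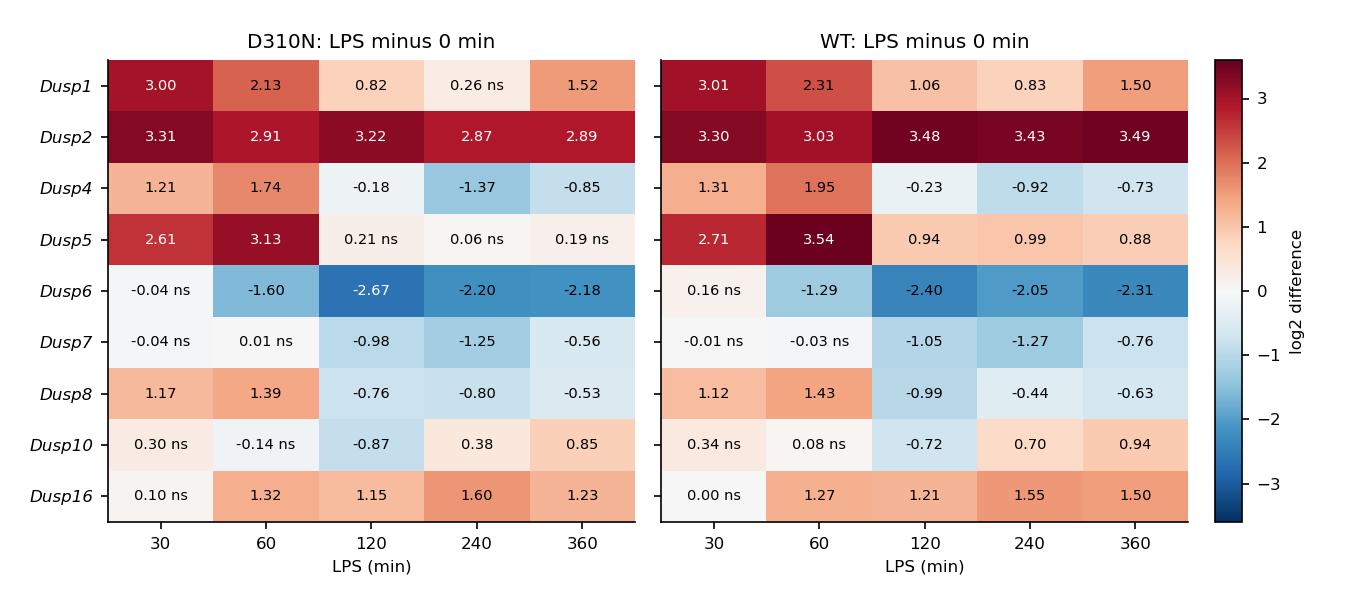
Log2 difference of each LPS time from 0 min for the 9 phosphatases, D310N on the left and WT on the right; red is up, blue is down, and ns marks an adjusted p of 0.05 or more. The late cells of Dusp5, 0.06 in D310N and 0.99 in WT at 240 min, differ between the panels.

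Steps between successive LPS times separate the early from the late movements. Between 30 and 60 min Dusp4, Dusp5 and Dusp16 rose in both genotypes while Dusp1, Dusp2 and Dusp6 fell, as did Dusp10 in D310N (7 of 9 called in D310N, background 31.8%, and 6 of 9 in WT, background 33.6%). The D310N fall of Dusp10 (-0.43 ± 0.13, adjusted p = 0.0106) was lost without D310N 60 min replicate 3 (-0.34, adjusted p = 0.0872). The WT fall of Dusp2 (-0.26 ± 0.09, adjusted p = 0.0199) was lost without WT 30 min replicate 1 or 2 (adjusted p = 0.0671 and 0.134) or WT 60 min replicate 2 (adjusted p = 0.0654). In WT the Dusp8 step of 0.31 ± 0.14 (adjusted p = 0.0765) passed without WT 30 min replicate 3 (adjusted p = 0.0481) or WT 360 min replicate 2 or 3 (adjusted p = 0.0352 and 0.0451).

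Most falls came between 60 and 120 min, when 8 of the 9 genes fell and Dusp2 rose in D310N (background 54.8% called, 27% lower). In WT 7 fell and Dusp2 rose (background 54.1% called, 28.1% lower), with Dusp16 at -0.06 ± 0.07 (adjusted p = 0.496). The median step over the 9 genes was -1.07 in D310N and -1.11 in WT, beside 0 and -0.02 over all tested genes. The D310N fall of Dusp16 (-0.18 ± 0.07, adjusted p = 0.045) did not pass without WT 60 min replicate 2 (adjusted p = 0.0501), D310N 60 min replicate 2 or 3 (adjusted p = 0.178 and 0.0624) or D310N 120 min replicate 1 or 3 (adjusted p = 0.246 and 0.0799). Between 120 and 240 min Dusp6, Dusp10 and Dusp16 rose and Dusp1, Dusp2 and Dusp4 fell in D310N (6 of 9 called, background 63%). In WT over the same step Dusp6, Dusp8, Dusp10 and Dusp16 rose and Dusp4 fell (5 of 9 called, background 64.3%). The WT rise of Dusp6 (0.35 ± 0.12, adjusted p = 0.00929) was lost without WT 240 min replicate 1 (0.29, adjusted p = 0.0528). Without WT 360 min replicate 1, falls of Dusp1 in WT (-0.23, adjusted p = 0.00953) and of Dusp7 in D310N (-0.26, adjusted p = 0.00216) and WT (-0.22, adjusted p = 0.00856) passed as well. The D310N fall of Dusp7 also passed without WT 360 min replicate 2 (adjusted p = 0.0309) or D310N 120 min replicate 3 (-0.33, adjusted p = 0.0454), and that of Dusp5 passed without D310N 240 min replicate 2 (-0.29, adjusted p = 0.0116). Between 240 and 360 min 4 genes rose and 1 fell in D310N (background 38.9%), Dusp1, Dusp4, Dusp7 and Dusp10 being up and Dusp16 down. In WT Dusp1 and Dusp7 rose (background 26.3%), and without WT 360 min replicate 1 Dusp4 (0.24, adjusted p = 0.0215) and Dusp10 (0.44, adjusted p = 0.00431) passed as well, as did a fall of Dusp6 (-0.44, adjusted p = 0.00106). The Dusp4 step in WT also passed without D310N 240 min replicate 2 (0.19, adjusted p = 0.0488). The Dusp7 step in WT was 0.51 (adjusted p = 0.00376) with all libraries, 0.79 (adjusted p = 1.87e-09) without WT 360 min replicate 1 and 0.32 (adjusted p = 0.0758) without WT 360 min replicate 2.

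Between the genotypes, differences were small early and lay mostly in one direction at 240 min. Over the 6 times 12 of the 54 pairs of gene and time were called, 4 higher and 8 lower in D310N. At 0 min 1 of the 9 genes was called (background 10.7%), and at 30 min 1 (background 12.2%), in both cases Dusp5, higher in D310N. At 60 min 0 were called by limma (background 12.9%), with 1 gene, Dusp8, at an unadjusted p under 0.05. At 120 min Dusp4 was higher and Dusp5 lower (2 of 9, background 17.7%). At 240 min 4 were called (background 17%), Dusp2, Dusp4, Dusp5 and Dusp8, all lower in D310N (background for lower 10%). The median over the 9 genes at 240 min was -0.32, beside -0.01 over all tested genes. At 360 min 4 were called (background 16.3%), Dusp2, Dusp5 and Dusp16 lower and Dusp6 higher, and without WT 360 min replicate 1 Dusp1, Dusp2 and Dusp16 were lower and Dusp6 higher. On average over the 6 times 4 were called, all lower, namely Dusp2, Dusp8, Dusp10 and Dusp16 (background 48.1% called, 25.4% lower), so that this share was near that of all tested genes. The sum of dividing-cell markers was also lower in D310N at 240 min (2830 to 3020, against 3620 to 3850 in WT). Their median log2 difference was -0.79, -0.76, -0.71, -0.7, -0.39 and -0.51 at 0, 30, 60, 120, 240 and 360 min, and so smallest at 240 min. The part of dividing cells in these results was not tested.

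**Figure D4:**
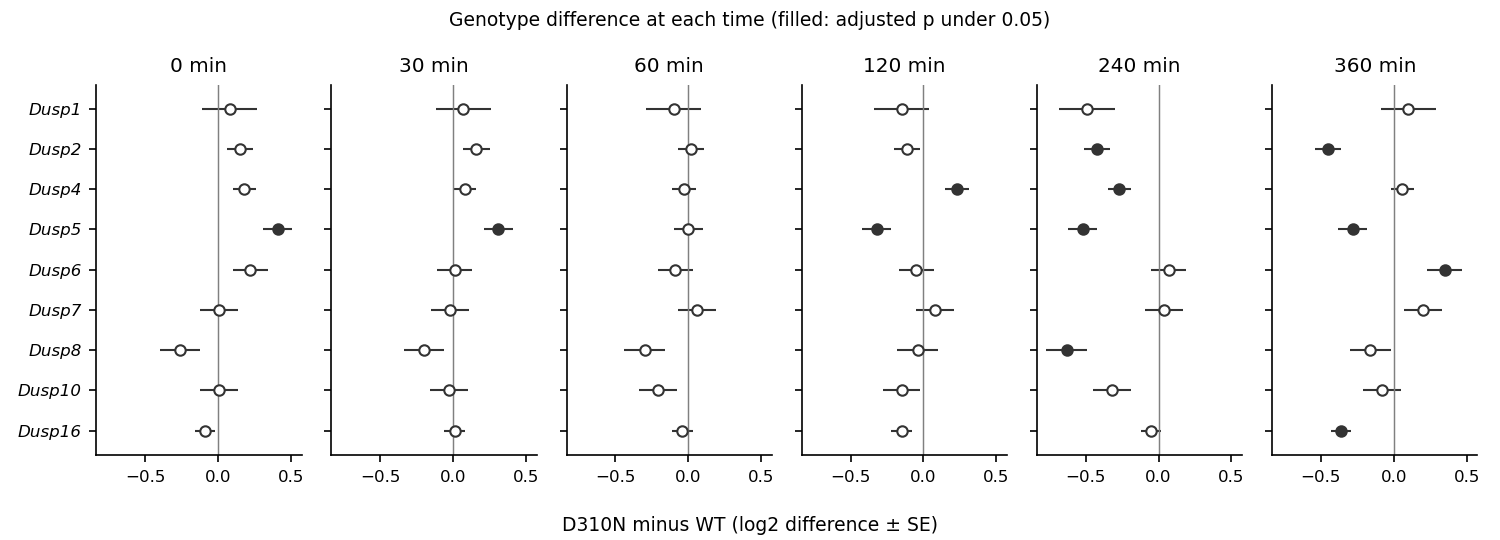
D310N minus WT (log2 difference ± SE, n = 3 libraries per group) for the 9 phosphatases at each time, filled where the adjusted p was under 0.05. The SE of a gene rests on its spread over all 12 groups and is the same at each time. At 240 min Dusp2, Dusp4, Dusp5 and Dusp8 are filled and lie left of 0, between -0.27 and -0.63.

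The calls at 240 min were of unequal strength. Dusp8 was 1.55-fold lower in D310N, at 5.16, 5.30 and 5.28 in D310N and 5.77, 5.85 and 6.01 in WT (-0.63 ± 0.14, adjusted p = 0.00157). Dusp5 was 1.43-fold lower (-0.52 ± 0.10, adjusted p = 0.000444) and Dusp2 1.33-fold lower (-0.42 ± 0.09, adjusted p = 0.00135). These 3 calls passed under every alternative run, with adjusted p-values of at most 0.0131 for Dusp8, 0.00882 for Dusp5 and 0.0155 for Dusp2. Dusp4 was 1.21-fold lower (-0.27 ± 0.08, adjusted p = 0.0151) and did not pass without WT 240 min replicate 2 (-0.26, adjusted p = 0.055), D310N 240 min replicate 1 (-0.26, adjusted p = 0.0626) or D310N 240 min replicate 3 (-0.19, adjusted p = 0.143). Dusp1 was 1.40-fold lower without passing (-0.49 ± 0.19, adjusted p = 0.0681), and it passed without WT 360 min replicate 1 (-0.49, adjusted p = 1.94e-05), WT 360 min replicate 2 (-0.49, adjusted p = 0.0288) or WT 240 min replicate 3 (-0.62, adjusted p = 0.0405). Dusp10 gave -0.32 ± 0.13 (adjusted p = 0.0971), and passed without WT 360 min replicate 1 (adjusted p = 0.0345). Dusp6, Dusp7 and Dusp16 differed by 0.07, 0.04 and -0.05, with overlapping libraries.

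At 360 min Dusp2 was 1.37-fold lower in D310N (-0.45 ± 0.09, adjusted p = 0.000669; -0.51 without WT 360 min replicate 1, adjusted p = 0.000373). Dusp16 was at 10.21, 10.44 and 10.23 in D310N, against 10.69, 10.79 and 10.48 in WT, with no overlap (-0.36 ± 0.07, adjusted p = 0.00126; -0.34 without that library, adjusted p = 0.00402). Groups without overlap made up 22.2% of tested genes at 360 min. When only the libraries of 360 min entered the fit, Dusp2 and Dusp16 did not pass (adjusted p = 0.103 and 0.186). Dusp6 was at 7.54, 7.40 and 7.37 in D310N, against 7.45, 6.73 and 7.09 in WT, so that the groups overlapped in replicate 1 of WT (0.35 ± 0.12, adjusted p = 0.0399). The Dusp6 difference was 0.53 (adjusted p = 0.000858) without WT 360 min replicate 1 and 0.17 (adjusted p = 0.292) without replicate 2. It did not pass without WT 360 min replicate 3 (0.35, adjusted p = 0.0633) or D310N 360 min replicate 1, 2 or 3 (0.30, 0.36 and 0.38, adjusted p = 0.153, 0.062 and 0.0634), nor with only the libraries of 360 min in the fit (adjusted p = 0.425), no filter (0.05) or no intensity trend (0.0506). Dusp1 changed sign, at 0.10 ± 0.19 (adjusted p = 0.762) with all libraries and -0.36 (adjusted p = 0.00302) without WT 360 min replicate 1. Dusp7 gave 0.20 ± 0.13 (adjusted p = 0.29) with all libraries, -0.08 (adjusted p = 0.552) without replicate 1 and 0.39 (adjusted p = 0.0181) without replicate 2 of WT at 360 min. Dusp8 gave -0.16 ± 0.14 (adjusted p = 0.45), and -0.36 (adjusted p = 0.0476) without WT 360 min replicate 2. Without WT 360 min replicate 1 Dusp4 gave 0.01, Dusp8 -0.14 and Dusp10 -0.29, and none of them passed.

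Dusp5 alone was called at 5 of the 6 times, and its direction turned along the course. At 0 min it was 1.33-fold higher in D310N (0.41 ± 0.10, adjusted p = 0.00465) and at 30 min 1.24-fold higher, with 9.47, 9.25 and 9.50 in D310N and 9.18, 9.11 and 9.02 in WT (0.31 ± 0.10, adjusted p = 0.0359). At 60 min the genotypes met (0.00 ± 0.10, adjusted p = 0.997). At 120 min Dusp5 was 1.25-fold lower in D310N, with 6.93, 7.21 and 6.89 in D310N and 7.42, 7.29 and 7.28 in WT (-0.32 ± 0.10, adjusted p = 0.0212). At 360 min it was at 6.99, 6.95 and 7.02 in D310N and 7.32, 7.13 and 7.35 in WT (-0.28 ± 0.10, adjusted p = 0.046). The libraries did not overlap at any of those 5 times; groups without overlap made up 32.7%, 33.4%, 31.7%, 37.6% and 22.2% of tested genes at 0, 30, 120, 240 and 360 min. The call at 0 min was lost without D310N 0 min replicate 1 (0.34, adjusted p = 0.0576). At 30 min it was lost without WT replicate 1, 2 or 3 (adjusted p = 0.0516, 0.0774 and 0.143) or D310N replicate 1 or 3 (adjusted p = 0.154 and 0.175) of that time. The Dusp5 call at 120 min was lost without WT replicate 1 (-0.28, adjusted p = 0.0984) or D310N replicate 1 or 3 (-0.28 and -0.26, adjusted p = 0.0885 and 0.119) of that time. At 360 min it was lost without any of 17 of the 36 libraries, WT replicates 1 and 3 (-0.26 and -0.24, adjusted p = 0.0998 and 0.126) and D310N replicates 1, 2 and 3 (-0.28, -0.26 and -0.30, adjusted p = 0.104, 0.108 and 0.0853) of that time among them. The others were WT 0 min replicates 2 and 3, WT 30 min replicate 2, all WT of 60 min, WT 120 min replicate 2, WT 240 min replicates 1 and 2, D310N 30 min replicate 1 and D310N 60 min replicates 1 and 3, with adjusted p-values of up to 0.0533. It was also lost with no filter (adjusted p = 0.0581), quantile normalisation (0.0901), no intensity trend (0.0535), only the libraries of 360 min (0.272) and the replicate block (0.0513).

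Of the averages over time, Dusp8 was lower in D310N at 6 of 6 times (-0.27 ± 0.06, adjusted p = 0.000199) and Dusp16 at 5 of 6 (-0.11 ± 0.03, adjusted p = 0.00251), and both passed under every alternative. Dusp2 averaged -0.11 ± 0.04 (adjusted p = 0.0152), lower at 3 of 6 times, and was lost after quantile normalisation (-0.08, adjusted p = 0.0681). Dusp10 averaged -0.13 ± 0.05 (adjusted p = 0.0452) and was lost without any of 20 of the 36 libraries (adjusted p up to 0.0852), with no filter (0.0649) and after median scaling (0.0743) or quantile normalisation (0.198). Dusp1 averaged -0.08 ± 0.08 (adjusted p = 0.394) with all libraries and -0.16 (adjusted p = 8.85e-05) without WT 360 min replicate 1. Dusp6 averaged 0.08 ± 0.05 (adjusted p = 0.153), and passed without WT 360 min replicate 1 (0.11, adjusted p = 0.0178) or D310N 120 min replicate 2 (0.11, adjusted p = 0.0465). Dusp5, whose signs cancel, averaged -0.07 ± 0.04 (adjusted p = 0.174), and -0.09 (adjusted p = 0.0414) without D310N 240 min replicate 2. At 120 min the Dusp4 difference of 0.23 ± 0.08 (adjusted p = 0.0392), with 8.74, 8.87 and 8.87 in D310N and 8.58, 8.62 and 8.60 in WT, was lost without WT replicate 1, 2 or 3 (adjusted p = 0.106, 0.0721 and 0.0838) or D310N replicate 2 or 3 (adjusted p = 0.113 and 0.121) of that time, and after median scaling (adjusted p = 0.051).

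The difference in LPS response, the change from 0 min in D310N minus that in WT, was tested directly and called 6 of 45 pairs of gene and time, all of them negative. A negative value is a smaller rise in D310N for Dusp2 and Dusp5, and for Dusp4, which lay below 0 min at 240 min, a larger fall. At 30 min 0 of the 9 genes were called by limma (background 0%), and 0 had an unadjusted p under 0.05. At 60 min 0 were called (background 0.0686%), with Dusp5 at an unadjusted p under 0.05 (-0.41 ± 0.14). At 120 min Dusp5 was called (1 of 9, background 0.935%), with -0.73 ± 0.14 (adjusted p = 0.0042). At 240 min 3 of 9 were called (background 1.95%), Dusp5 with -0.93 ± 0.14 (adjusted p = 0.000277), Dusp2 with -0.57 ± 0.13 (adjusted p = 0.0133) and Dusp4 with -0.45 ± 0.11 (adjusted p = 0.0285). At 360 min 2 of 9 were called (background 2.01%), Dusp5 with -0.69 ± 0.14 (adjusted p = 0.00502; -0.67 without WT 360 min replicate 1) and Dusp2 with -0.60 ± 0.13 (adjusted p = 0.00772; -0.66 without that library). The joint F test over the 5 times called 3 of 9 (background 4.84%), Dusp5 (adjusted p = 9.17e-05), Dusp2 (adjusted p = 0.00162) and Dusp4 (adjusted p = 0.0352). The other 6, Dusp1 among them (adjusted p = 0.625), had joint adjusted p-values of 0.201 to 0.972. A share of these differences lies at 0 min, where D310N minus WT was 0.41 for Dusp5, 0.15 for Dusp2 and 0.18 for Dusp4, and the LPS times share those libraries.

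Leaving out single libraries moved some of these calls. Dusp2 at 240 min was lost without D310N 0 min replicate 3, the highest of its group at 8.59 (-0.42, adjusted p = 0.0579). Dusp4 at 240 min was lost without WT 0 min replicate 2 or 3 (adjusted p = 0.0767 and 0.0541), WT 240 min replicate 2 or 3 (adjusted p = 0.0594 and 0.0535), D310N 0 min replicate 1 or 3 (adjusted p = 0.0717 and 0.0803) or D310N 240 min replicate 1 or 3 (adjusted p = 0.0675 and 0.0995). The Dusp4 joint call was lost without any of 15 of the 36 libraries (adjusted p up to 0.137, without D310N 240 min replicate 3). The joint calls of Dusp2 and Dusp5 passed under every alternative run (adjusted p of at most 0.00643 and 0.00034). Without WT 360 min replicate 1 the joint test called 5 genes, Dusp1 (adjusted p = 0.00108) and Dusp6 (adjusted p = 0.0249) being added. The Dusp1 difference in response without that library was -0.57 at 240 min (adjusted p = 0.00136, against 0.307 with it) and -0.45 at 360 min (adjusted p = 0.0172), where all libraries gave 0.02 ± 0.26 (adjusted p = 0.986). With only the libraries of 0 and 360 min in the fit, the Dusp5 and Dusp2 differences at 360 min were lost (adjusted p = 0.0954 and 0.188), and without the intensity trend the joint call of Dusp4 was lost (adjusted p = 0.0541). Dusp16 passed the joint test without WT 360 min replicate 3 (adjusted p = 0.0466).

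Other genes of the MAP kinase pathway moved in both directions between the genotypes on average over time, with 22.7% of tested genes higher and 25.4% lower in D310N as background. Of 8 tested MAP kinases 5 were higher and 2 lower. Mapk14, which encodes p38 alpha, was higher by 0.20 ± 0.03 (adjusted p = 2.56e-07) and Mapk3, which encodes ERK1, was at -0.09 ± 0.02 (adjusted p = 0.0012). Mapk7 (0.15) was higher and Mapk11 (-0.14) lower, the Mapk11 call being lost after quantile normalisation (-0.09, adjusted p = 0.115). Of 7 MAP2 kinases 2 were higher and 0 lower, Map2k1 (0.07 ± 0.02, adjusted p = 0.000247) and Map2k2 (0.10 ± 0.02, adjusted p = 0.000731), the kinases that activate ERK. Of 15 MAP3 kinases 2 were higher, Map3k4 (0.16) and Map3k6 (0.11), and 4 lower, among them Map3k14 (-0.09), Map3k12 (-0.11) and Map3k8, which encodes Tpl2, at -0.07 ± 0.02 (adjusted p = 0.00392). The Map3k12 call was lost under 14 alternatives. Of 10 kinases activated by MAP kinases 2 were higher and 3 lower, with Rps6ka3 at 0.16 and Rps6ka2, Rps6ka5 and Mapkapk3 at -0.17, -0.12 and -0.12.

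Of 14 Sprouty, Spred and other inhibitors of Ras and ERK signalling 7 were higher and 2 lower in D310N. Rasa1 (0.25 ± 0.03, adjusted p = 6.37e-08) and Nf1 (0.21 ± 0.03, adjusted p = 1e-05), which encode Ras GTPase activating proteins, and the adaptor gene Dok2 (0.20) were higher, and Spry3 (-0.27) was lower. The Spry3 means lay under the expression minimum of 3.32 on log2 from 60 min on in both genotypes. Of 7 other phosphatases that act on MAP kinases 2 were higher, Dusp9, a cytoplasmic relative of Dusp6 (0.22 ± 0.06, adjusted p = 0.00273), and Ppp2ca (0.06), and 1 was lower, Ptpn7 (-0.06), whose call was lost after median scaling (adjusted p = 0.0841). Of 10 atypical dual specificity phosphatases, which lack the MAP kinase binding domain, 3 were higher and 4 lower, with Dusp23 at 0.23 and Dusp18, Dusp14 and Dusp22 at -0.33, -0.25 and -0.21. The Dusp14 call was lost after quantile normalisation (adjusted p = 0.0572). Means of Dusp14 at 0 min and of Dusp18 at 240 min were also under the expression minimum in both genotypes. Of 16 immediate early genes known as ERK targets, most of which encode transcription factors, 6 were higher and 4 lower, with Egr2 at 0.42 ± 0.04 (adjusted p = 9.26e-10) and Fosl1 at 0.37, and Egr3 and Nr4a3 at -0.36 and -0.34. At 0 min Egr2 averaged 9.81 ± 0.35 in D310N and 8.74 ± 0.022 in WT (log2, SD, n = 3 libraries each).

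At 240 min the difference in LPS response between the genotypes, with 1.95% of tested genes called, was called for 3 of these 16 immediate early genes, all with a negative value: Egr2 (-1.11 ± 0.14, adjusted p = 2.82e-05), Fosl1 (-0.97 ± 0.25, adjusted p = 0.0361) and Myc (-0.58 ± 0.13, adjusted p = 0.0178). Their median was -0.33 over the 16, beside -0.37 over the 9 phosphatases and 0 over all tested genes. From 0 to 240 min Egr2 fell by 2.03 in D310N and by 0.92 in WT (log2), and the change of Fosl1 was -1.33 in D310N and -0.37 in WT, so the fall was the larger in D310N. The genotypes stood apart before LPS, with Egr2 averaging 9.81 in D310N and 8.74 in WT at 0 min, and Fosl1 3.9 and 3.14. D310N also had the higher means of both genes at 30, 60 and 120 min. At 120 min they were 9.01 in D310N and 8.53 in WT for Egr2, and 4.24 and 3.62 for Fosl1. At 240 min the means were close, at 7.78 in D310N and 7.82 in WT for Egr2 and 2.57 and 2.77 for Fosl1. The WT mean of Fosl1 at 0 min and both its means at 240 min lay under the expression minimum of 3.32. Myc was at 7.98, 8.42 and 8.12 in D310N and 8.67, 8.54 and 8.74 in WT at 240 min, with libraries between 9.10 and 9.28 in both at 0 min. In the other 7 lists Mapk14 differed by 0.51 ± 0.09 (adjusted p = 0.00166), with a change of -0.20 in D310N and -0.71 in WT. Rasa1 differed by -0.39, with -0.50 in D310N and -0.11 in WT, and Rps6ka3 by -0.38, with 0.09 in D310N and 0.47 in WT. Myc is named here because it was called, after its value was seen. None of the 10 atypical phosphatases or of the 7 other phosphatases that act on MAP kinases was called by limma at that time. At 30 min of LPS 11 of the 16 immediate early genes rose in both genotypes, with a median of 2.29 in D310N and 2.60 in WT. Of all tested genes 5.16% rose in D310N and 4.79% in WT. Of the 10 atypical phosphatases 0 were called in either genotype. That is near the share of all tested genes called, 6.64% in D310N and 6.09% in WT.

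The genes whose group means ran most like those of each phosphatase were found by Pearson's r over the 12 group means, each from its own 3 libraries, as a description. Dusp2 ran closest to Nfkbia (0.986), Tnfaip3 (0.979) and Tnf (0.971), where Nfkbia and Tnfaip3 encode inhibitors of NF-kB signalling and Tnf an inflammatory cytokine. Dusp1 ran closest to Id3 (0.9), Junb (0.885) and Zfp36 (0.881), and Dusp5 to Nfkbid (0.95), Gdf15 (0.932) and Id3 (0.923). Dusp4 ran with Zfp703 (0.968), Egr3 (0.966) and Fosl2 (0.966), and Dusp8 with Myc (0.973), Fosb (0.958) and Gdf15 (0.952). Dusp6 ran with Lpar6 (0.993), Dusp7 with Utp14b (0.988), Dusp10 with Zfyve26 (0.978) and Dusp16 with Tank (0.984) and Csf1 (0.982). Within the family the highest values were those of Dusp4 with Dusp8 (0.921), with Dusp5 (0.886), and of Dusp5 with Dusp8 (0.884), while Dusp6 and Dusp7 ran together at 0.814. The lowest was that of Dusp6 with Dusp16 (-0.923), the pair in which the ERK-selective gene fell while the JNK-selective gene rose.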

How the data were processed

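RNA was measured in 36 libraries, 3 for each of 12 groups of genotype and time. Per the submitters' processing notes, STAR 2.5.2a, RSEM 1.2.31, DESeq2 1.10.1 and mm10 were named, with no role given. The deposited table holds the authors' normalised values on a log2 scale from -4.14 to 19.3 (library medians 6.83 to 7.2); the transformation is not given in the sources used here, and one that pulls low values together would make differences of weakly expressed genes too small. It holds no counts, so read depth is unknown. The header writes the mutation as D309N and the titles as D310N.

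Of 16439 genes, 23 with date-like names were left out. A gene was tested with a value of at least 10 on the linear scale (3.32 on log2) in at least 3 libraries, which left 11656. limma 3.58.1 in R 4.3.3 was fitted to the log2 values with 1 mean per group and an intensity trend (24 residual degrees of freedom), with two-sided p-values adjusted by Benjamini-Hochberg over all tested genes within a comparison and called under 0.05. The plan had foreseen log2(value + 1) of linear values; none was added. All 9 genes were described; of each of 8 pathway lists, up to 4 called genes with the largest average difference between genotypes were named, then Map3k8 and Tnip2. The members, lists and rules were chosen with earlier results of these data known. Positions are from GENCODE M21 (GRCm38), promoters from RefSeq (GRCm38.p6), which held 8 of the 9 genes, Dusp4 being the other. The model was checked on simulated data in which a gene had the same spread in all groups. That check does not cover the wider spread of the WT libraries of 360 min. Their root mean square deviations from the group mean were 0.157 to 0.246, against at most 0.128 in the other libraries. Alternatives tried were pseudocounts of 1 and 8, no filter and a minimum of 50, trimmed mean, median and quantile scaling, no trend, library weights, only the groups compared, a replicate block, each library left out, and, chosen after seeing the data, no libraries of 360 min. Replicate numbers recur in all groups; only D310N at 120 against 0 min had a correlation of same-numbered deviations over 0.1 in all 3 pairs (0.325, 0.373 and 0.131), though those of the other D310N times against 0 min were all positive (0.0366 to 0.419).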

Additional observations from a re-analysis of the deposited data

Results flagged for a closer look

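The LPS response differed between D310N and WT by a test of the difference itself (limma) for 3 of the 9 phosphatases. Of all tested genes the joint test called 4.84%, and the tests at 120, 240 and 360 min called 0.935%, 1.95% and 2.01%. For Dusp5 the change from 0 min in D310N minus that in WT was -0.73 at 120 min, -0.93 at 240 min and -0.69 at 360 min (log2), and the joint test over the 5 times gave an adjusted p of 9.17e-05. For Dusp2 it was -0.57 at 240 min and -0.60 at 360 min, with a joint adjusted p of 0.00162. For Dusp4 it was -0.45 at 240 min, with a joint adjusted p of 0.0352. Without WT 360 min replicate 1 the joint adjusted p-values were 4.19e-05 for Dusp5, 0.000374 for Dusp2 and 0.0131 for Dusp4. The Dusp4 joint call was lost without any of 15 of the 36 libraries (adjusted p up to 0.137) and without the intensity trend (0.0541). At 240 min the Dusp4 call was lost without any of 8 libraries, and the Dusp2 call without 1.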

How the results depend on the processing

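Of 13518 values of the 9 phosphatases under an alternative, 13181 kept their direction and side of the threshold, whatever their change in size. Of the others, 134 no longer passed and 97 newly passed. A further 104 changed direction without passing in either setting, and 2 reversed, changing direction with a pass in at least 1 setting. Both reversals were of Dusp1 without WT 360 min replicate 1, to -0.36 between the genotypes at 360 min and to -0.45 for the difference in LPS response at 360 min, their highest values under such omissions being 0.38 and 0.29 without WT 360 min replicate 2; the cause was not tested. With library weights, counts over all members were 20 in place of 12 between the genotypes over the 6 times and 5 in place of 3 for the joint test, and with quantile normalisation 2 in place of 4 on average over time; the causes were not tested. Leaving out 1 library gave 2 to 5 for the joint test, 10 to 14 between the genotypes over the 6 times and 3 to 6 on average. LPS against 0 min gave 34 to 37 in D310N and 39 to 40 in WT, and single differences in response 4 to 8. Over all tested genes, calls between the genotypes at 360 min numbered 12 with only the groups compared, against 1903 with all libraries, and at 0 min 3458 with library weights, against 1250.

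The replicate numbers are shared by all groups without a stated meaning. With the replicate block, counts over all members were 11 between the genotypes over the 6 times, 4 on average, 35 and 39 for LPS in D310N and WT, 6 for single responses and 3 for the joint test, the change being the Dusp5 call at 360 min (adjusted p = 0.0513). With a block within genotype the joint test called 4, Dusp16 being added (adjusted p = 0.0402). The unknown read depth and transformation limit what can be said of Dusp8 and Dusp10, the lowest of the 9.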
